A study of Rattus norvegicus with 88 samples.

Results

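The miR-29 family on this rat array consists of rno-miR-29a, rno-miR-29b and rno-miR-29c, which were chosen by name and are 3 of the 314 miRNAs detected on at least 1 array, the expressed miRNAs. A further 363 miRNAs on the array were not detected on any. The species prefix is left out from here on. Each member was detected on all 88 arrays. A miRNA recognises its targets mainly through its seed, the bases near the 5′ end that pair with the mRNA, so miRNAs with the same seed have largely overlapping sets of targets. The miR-29 family is best known for repressing mRNAs of collagens, elastin and other proteins of the extracellular matrix, and in the liver it has been studied chiefly in stellate cells and fibrosis. Its members are also among the miRNAs repeatedly linked with ageing and cell senescence.

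The mature sequences are shown because the 3 members share a seed but not the rest of the molecule, and because 1 mature miR-29b is encoded at 2 loci. Sequences and positions are those of RefSeq for build GRCr8, written 5′ to 3′ with bases 2 to 8, the seed, in capitals.
miR-29a-3p: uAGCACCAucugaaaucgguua
miR-29b-3p: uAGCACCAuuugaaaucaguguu
miR-29c-3p: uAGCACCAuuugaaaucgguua

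The seed AGCACCA occurred in these 3 of the 693 mature rat miRNA names of the table and in no other. Counted from 1 at the 5′ end, miR-29c differed from miR-29a by the single substitution C10U, identical at 21 of 22 bases. miR-29b differed from miR-29a at 4 of 22 bases, C10U, G18A, U21G and A22U, and was 1 base longer. From miR-29c it differed by G18A, U21G and A22U. The miRNA gene Mir29a lies on the minus strand at chr4:60617955-60618042 and Mir29b1 next to it at chr4:60618334-60618414, with 291 bases between the hairpins. Mir29b2 lies on the plus strand at chr13:109098831-109098911 and Mir29c at chr13:109099359-109099446, with 447 bases between them. Mature miR-29b is thus encoded beside each of the other members, and the array could not tell from which locus it came. The array carried 2 probes and 20 spots for each member, and the probe sequences were not used here.

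The study asked how hepatic miRNA expression differs over the life span and between the sexes of the F344 rat, an inbred laboratory strain. RNA from whole liver of untreated animals was hybridised to single-colour arrays, 1 animal to an array. Males and females were taken at 9 ages, namely 2 weeks, 5, 6 and 8 weeks, then 15 and 21 weeks, and last 52, 78 and 104 weeks, with 5 animals in each group of sex and age except the males of 5 and of 104 weeks, with 4 each, which gave 45 female and 43 male arrays. Following the study, 2 weeks is called young, 5 to 21 weeks adult and 52 to 104 weeks old. The number of animals in a group, 4 or 5, limited the precision. Between 134 and 255 miRNAs were detected on an array, and the hepatocyte markers miR-122, miR-192 and miR-194 were detected on all arrays. The arrays lay on 13 slides and were scanned in 5 sessions, called scans here, 4 of which held over 1 array. Values are normalized intensities, the summed signal of a miRNA divided by the 75th percentile over the 314 expressed miRNAs of its array. Differences are on the log2 scale of these intensities. A difference was called when limma gave a Benjamini-Hochberg adjusted p under 0.05 over all 314 expressed miRNAs and the groups differed at least 1.5-fold. Probes of different miRNAs respond differently, so the levels of the members are not set against one another and only their changes are compared.

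All 3 members were lowest at 2 weeks in both sexes and increased over the adult ages. From the group at 2 weeks to the group with the highest mean, the intensity of miR-29b differed 19.6-fold in females and 23.9-fold in males. For miR-29a these folds were 9.75 and 16.5, and for miR-29c 7.26 and 12.8. The highest mean was at 52 weeks in females for each member. In males it was at 104 weeks for miR-29a and miR-29b and at 52 weeks for miR-29c. Across the 9 ages limma's F test with the fold rule called 57.3% of the expressed miRNAs in females and 54.1% in males, so a change with age as such was common, and each member was among them in both sexes.

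**Figure D1:**
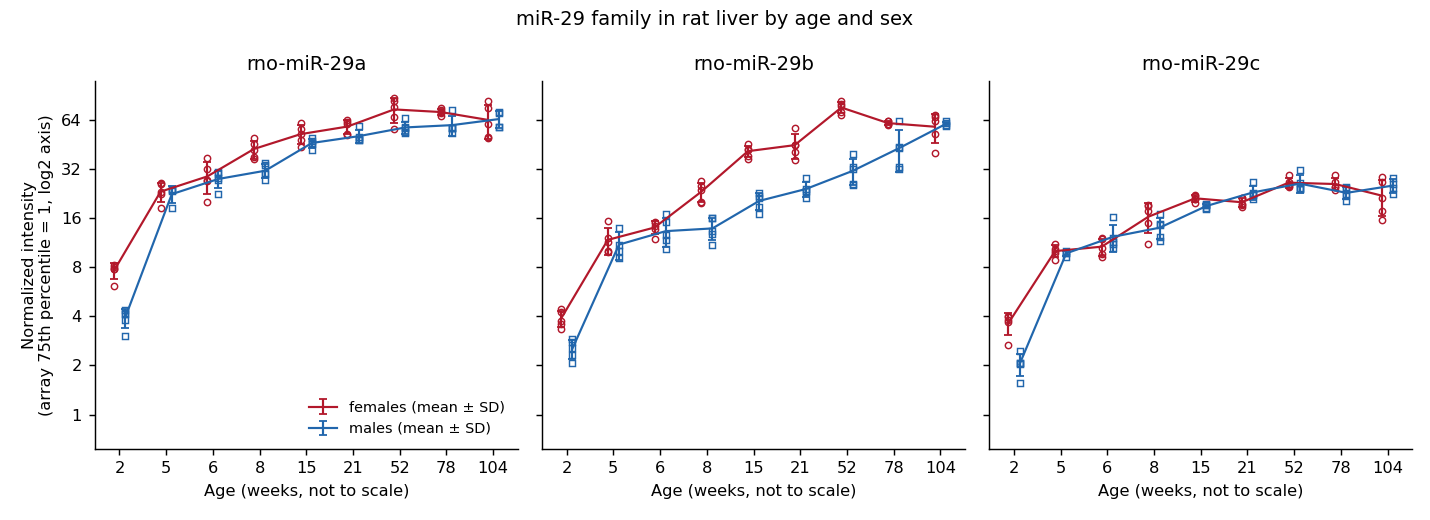
Normalized intensity (log2 axis, 1 = the 75th percentile of the array) of miR-29a, miR-29b and miR-29c at the 9 ages, 1 panel a member. Points are single animals, lines join group means and bars are SD (n = 5, or 4 in males at 5 and 104 weeks). The 2-week animals sit below every older animal of their sex, and females and males separate for miR-29b from 8 to 52 weeks and come together at 104 weeks.

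The normalized intensity of miR-29a in females was 7.59 ± 0.851 (SD, n = 5) at 2 weeks, 23.2 ± 3.14 at 5, 28.8 ± 6.47 at 6, 42.4 ± 5.38 at 8, 52.3 ± 7.02 at 15 and 58.1 ± 5.64 at 21 weeks. It was 74.1 ± 12.7 at 52, 71.4 ± 2.92 at 78 and 63.9 ± 15.3 at 104 weeks. In males it was 3.91 ± 0.533 at 2 weeks, 22.4 ± 2.72 at 5, 27.8 ± 3.35 at 6, 31.2 ± 3.05 at 8, 46.1 ± 2.86 at 15, 50.8 ± 4.46 at 21, 57.4 ± 4.99 at 52, 59.3 ± 8.10 at 78 and 64.6 ± 7.70 at 104 weeks. In the order of the 18 group means, neighbours were farther apart than the larger of their SDs in 5 of 17 pairs and had overlapping values in 14. The steps beyond the spread were from males to females at 2 weeks, from there to males at 5 weeks, from females at 5 to males at 6 weeks, from males to females at 8 weeks, and from males at 15 to males at 21 weeks. From males at 21 weeks upward, no neighbouring groups differed beyond their spread.

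For miR-29b the female means were 3.88 ± 0.458 at 2 weeks, 11.8 ± 2.23 at 5, 14.0 ± 1.27 at 6, 23.2 ± 3.19 at 8, 41.1 ± 3.39 at 15 and 44.7 ± 7.86 at 21 weeks, then 76.1 ± 6.10 at 52, 61.1 ± 1.62 at 78 and 58.0 ± 11.7 at 104 weeks. The male means were 2.53 ± 0.344 at 2 weeks, 11.004 ± 2.09 at 5, 13.3 ± 2.65 at 6, 13.8 ± 2.13 at 8, 20.4 ± 2.39 at 15, 24.1 ± 2.53 at 21, 31.1 ± 5.66 at 52, 42.9 ± 12.5 at 78 and 60.4 ± 1.74 at 104 weeks. Neighbours in the order of these means were beyond their spread in 7 of 17 pairs, more than for the other members, and overlapped in 13. The first 4 of these steps were from males to females at 2 weeks, then to males at 5 weeks, from females at 6 to males at 15 weeks, and from males at 21 to males at 52 weeks. The other 3 were from males at 52 to females at 15 weeks, from females at 21 to females at 104 weeks, and from females at 78 to females at 52 weeks. The oldest males thus stood beside the oldest females in the order, whereas males of 52 weeks stood below females of 15 weeks.

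For miR-29c the female means were 3.63 ± 0.560 at 2 weeks, 10.04 ± 0.838 at 5, 10.69 ± 1.30 at 6, 16.3 ± 3.35 at 8, 21.1 ± 0.955 at 15, 20.002 ± 1.23 at 21, 26.4 ± 1.75 at 52, 25.9 ± 2.23 at 78 and 21.9 ± 5.57 at 104 weeks. The male means were 2.03 ± 0.315 at 2 weeks, 9.73 ± 0.323 at 5, 12.3 ± 2.32 at 6, 14.0 ± 2.13 at 8, 19.0 ± 0.580 at 15, 23.0 ± 2.22 at 21, 26.0 ± 3.17 at 52, 22.8 ± 1.836 at 78 and 25.3 ± 2.48 at 104 weeks. Only the lowest 2 of the 17 steps, from males to females at 2 weeks and on to males at 5 weeks, went beyond the spread. In 15 pairs the neighbours overlapped, so from 5 weeks on the groups of miR-29c formed a gradual series without a clear order among neighbours.

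The 2-week liver was compared with the adult liver to describe the members in suckling rats. In the 5 females of 2 weeks miR-29a measured 6.11, 7.79, 7.82, 7.98 and 8.27, against a lowest adult female of 18.6. In the 5 males it measured 3.02, 3.83, 4.14, 4.20 and 4.36, against a lowest adult male of 18.4. No 2-week animal overlapped an adult of its sex. The intensities of miR-29b were 3.36, 3.60, 3.72, 4.26 and 4.45 in the 2-week females, with adult females from 9.94 upward. In the 2-week males they were 2.07, 2.31, 2.56, 2.79 and 2.91, with adult males from 9.12 upward. Here too young and adult animals were apart. The intensities of miR-29c were 2.66, 3.67, 3.82, 3.96 and 4.03 in the 2-week females and 1.56, 2.04, 2.06, 2.07 and 2.44 in the males. The lowest adults, at 8.87 and 9.29, were above all of these. The share of all expressed miRNAs without overlap between 2-week and adult rats is not given here.

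In females the 2-week level was lower than the adult level by a log2 difference of -2.34 ± 0.22 (SE) for miR-29a, -2.59 ± 0.31 for miR-29b and -2.05 ± 0.20 for miR-29c (limma, adjusted p = 1.10e-12, 1.20e-09 and 2.59e-12). In males the differences were -3.15 ± 0.18, -2.67 ± 0.22 and -2.90 ± 0.18 (limma, adjusted p = 2.03e-19, 3.85e-14 and 3.91e-18). All 3 members were called lower in each sex, where 22.9% of the expressed miRNAs were called lower in females and 29.9% in males, and 16.9% and 19.7% were called higher. By size, the members were the 5th, 3rd and 9th from the lowest difference of 314 in females and the 2nd, 9th and 5th in males, in the order miR-29a, miR-29b, miR-29c. In bulk liver, fewer cells of a type that carries a miRNA and less of it per cell cannot be told apart. The 3 hepatocyte markers were also called lower at 2 weeks in both sexes. Their summed intensity was 560 to 674 in 2-week females against 653 to 1289 in adult females, and 399 to 429 against 634 to 1272 in males. The summed leukocyte markers were 3.73 to 5.16 against 5.63 to 13.5 in females and 2.93 to 5.60 against 6.85 to 12.9 in males, with 3 of 5 and 4 of 5 called lower and miR-155 undetected on every array. Both red cell markers, miR-144 and miR-451, were called lower in each sex, with sums of 3.29 to 5.64 against 4.17 to 19.1 in females and 3.18 to 6.26 against 7.14 to 21.1 in males. In females the biliary markers miR-200a and miR-200b were called higher and the muscle marker miR-499 lower. In males the mesenchymal marker miR-143 and the endothelial marker miR-126* were called lower. The part of these cell types in the members' differences was not tested.

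**Figure D2:**
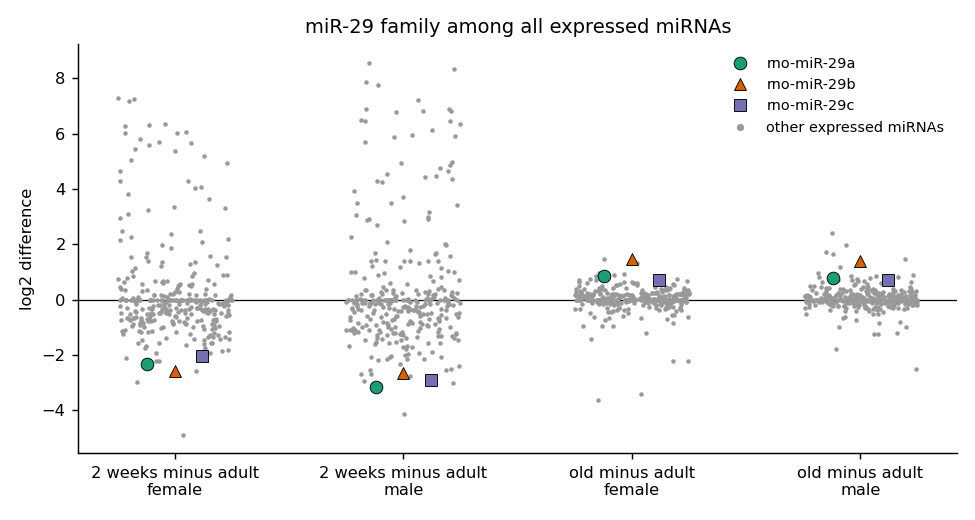
Log2 differences of the 314 expressed miRNAs (grey points, 1 a miRNA, spread sideways for visibility) for 2 weeks minus adult and old minus adult in each sex. The coloured symbols are miR-29a, miR-29b and miR-29c, which lie between -3.15 and -2.05 at 2 weeks and between 0.71 and 1.47 in old rats.

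The scaling of the arrays bore on this comparison, since the median difference of all 314 expressed miRNAs at 2 weeks was -0.13 in each sex rather than 0. It was -0.57 in females and -0.62 in males when arrays were scaled on all miRNAs of the array, and 0.28 in males when they were scaled on the miRNAs detected on all arrays. Over the 13 alternatives run, the members' differences stayed between -3.36 and -1.34 in females and between -4.34 and -1.55 in males. All were called.

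The fall from adult to 2-week level was not equal in the sexes for every member. A limma interaction across all 18 groups, chosen after the values had been seen, gave a male minus female difference of the 2-week change of -0.79 ± 0.14 for miR-29a (adjusted p = 2.94e-06) and -0.83 ± 0.13 for miR-29c (adjusted p = 3.53e-07). Both were past the threshold, as were 29.9% of all expressed miRNAs. For miR-29b the same term was -0.05 ± 0.15 (adjusted p = 0.901). With normexp background correction the terms of miR-29a and miR-29c were -0.48 and -0.45 and were not past it (limma, adjusted p = 0.592 for both). Over the 12 alternatives they ranged from -1.19 to -0.33 for miR-29a and from -1.24 to -0.38 for miR-29c. Scaled on all miRNAs of the array, miR-29a at -1.19 also missed the threshold (limma, adjusted p = 0.0572). Both were smallest in size, and still past the threshold, with arrays scaled on the miRNAs detected on all arrays.

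Old rats were compared with adults within each sex, the comparison of adult with ageing liver. All 3 members were called higher in old females, by 0.85 ± 0.15 (SE) for miR-29a, 1.47 ± 0.21 for miR-29b and 0.72 ± 0.13 for miR-29c (limma, adjusted p = 4.59e-05, 1.17e-06 and 0.000101), that is 1.80-fold, 2.76-fold and 1.64-fold. All 3 were called higher in old males as well, by 0.80 ± 0.12, 1.38 ± 0.15 and 0.71 ± 0.12 (limma, adjusted p = 9.72e-06, 3.63e-09 and 6.32e-05), or 1.74-fold, 2.61-fold and 1.63-fold. The background was small here. Of the 314 expressed miRNAs, 1.59% were called higher in old females, 5 miRNAs of which 3 are the members, and 3.82% in old males, 12 miRNAs with the 3 members among them. A further 2.87% and 1.27% were called lower.

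The adult and old animals nevertheless overlapped. For miR-29b, adult females ran from 9.94 to 57.3 with a median of 23.9 and old females from 40.1 to 82.8 with a median of 63.2, and 13 of the 15 old females exceeded the highest adult. Adult males ran from 9.12 to 28.2 with a median of 16.0 and old males from 25.6 to 63.2 with a median of 41.0, and 12 of 14 old males exceeded the highest adult. For miR-29a, 11 of 15 old females but 4 of 14 old males lay above the highest adult of their sex. Adult females ran from 18.6 to 64.0 (median 41.9) and old females from 49.8 to 87.3 (median 71.0). Adult males ran from 18.4 to 58.6 (median 32.4) and old males from 52.9 to 73.5 (median 57.3). For miR-29c, 12 of 15 old females and 2 of 14 old males lay above all adults, with adult medians of 17.6 and 15.5 and old medians of 25.02 and 24.4 in females and males. Every old animal was above the adult median of its sex except 1 female for miR-29c.

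No difference between the sexes in this increase was detected. The male minus female difference of the old minus adult change was -0.05 ± 0.19 for miR-29a, -0.08 ± 0.26 for miR-29b and -0.01 ± 0.18 for miR-29c, with a limma adjusted p of 1 for each, where 1.59% of the expressed miRNAs were past the threshold. For miR-29a and miR-29c the call depended on the scaling. Under quantile normalization their differences were 0.40 and 0.54 in females and 0.42 and 0.51 in males, below 1.5-fold. Within each of the 4 scans that held both classes, the differences of all 3 members were positive in both sexes, from 0.27 to 1.95 in females and from 0.41 to 1.62 in males. Some scans held few arrays, such as 1 with 1 old and 4 adult females. Within single slides the differences ranged from -0.00034 to 2.69 in females and from 0.19 to 2.61 in males.

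The adult class spans a period in which the members were still increasing, and the choice of adult age decided much of the result. Against 5, 6 and 8 weeks, the pairwise contrasts of the 3 old ages in the 2 sexes were called higher in 17 of 18 for miR-29a, 18 of 18 for miR-29b and 17 of 18 for miR-29c, where 5.8% of such contrasts over all expressed miRNAs were called higher. Against 15 and 21 weeks, 7 of 12 were called for miR-29b and 0 of 12 for miR-29a and for miR-29c by limma, where 1.41% were called over all expressed miRNAs. An unadjusted p under 0.05 was found in 9 of the 12 for miR-29a and in 7 of the 12 for miR-29c. These contrasts ranged from 0.11 to 0.50 for miR-29a in females and 0.18 to 0.48 in males, and for miR-29c from 0.02 to 0.40 and from -0.01 to 0.45. For miR-29b they ranged from 0.37 to 0.89 in females, 2 of 6 called, and from 0.36 to 1.58 in males, 5 of 6 called. Of all 36 pairs of ages, 27 were called for miR-29b in females and 28 in males, against 21 and 22 for miR-29a and 22 and 22 for miR-29c, where 13.7% and 13.1% of all such contrasts were called.

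Taken age by age against the mean of the adult ages, each member was called higher at each old age in each sex in 17 of 18 cases. Under quantile normalization 10 of the 18 were called, and scaled on all miRNAs of the array 5. The background of higher calls was 4.46% at 52, 4.14% at 78 and 3.5% at 104 weeks in females and 3.18%, 3.5% and 6.37% in males. For miR-29b the female differences were 1.71 ± 0.10 at 52 weeks, 1.39 ± 0.10 at 78 and 1.29 ± 0.10 at 104 weeks, and it had the smallest p of all 314 miRNAs at each of them. The male differences were 0.97 ± 0.12, 1.41 ± 0.12 and 1.95 ± 0.13, so that the largest came at the first old age in females and at the last in males. For miR-29a the differences lay between 0.71 and 0.93 in females and between 0.76 and 0.92 in males. The case not called was miR-29c in females at 104 weeks, at 0.53 ± 0.10 or 1.44-fold (limma, adjusted p = 0.000334). The 5 females there measured 15.7, 17.7, 21.1, 26.7 and 28.5, a spread wider than at any other age from 5 weeks on. Without the lowest, replicate 1, the difference was 0.64, and without the next, replicate 8, it was 0.60, and both were called.

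Between 52 and 104 weeks miR-29b changed in males and not by the same rule in females. The males of 52 weeks measured 25.6, 26.0, 31.8, 32.9 and 39.3. The males of 104 weeks measured 58.9, 59.3, 60.9 and 62.7, all above. The difference of 0.98 ± 0.16 (1.97-fold) was called (limma, adjusted p = 0.000220), with the smallest p of all 314 expressed miRNAs, where 1.27% were called higher. The call was lost with arrays scaled on all miRNAs of the array (0.22, limma adjusted p = 1) and with normexp (1.15, limma adjusted p = 0.0846). The percentile of the former scaling was an undetected value on 36 of the 88 arrays. The females of 52 weeks measured 68.5, 71.0, 77.9, 80.2 and 82.8. Those of 104 weeks measured 40.1, 52.6, 63.2, 66.2 and 68.1, all below. This difference of -0.41 ± 0.12 was under 1.5-fold in size (limma, adjusted p = 0.0384), where 2.55% of the miRNAs were called lower, and it was 0.25 with arrays scaled on all miRNAs of the array. The interaction of sex with this change, also chosen after the values had been seen, was 1.39 ± 0.20 (limma, adjusted p = 7.54e-07), again with the smallest p of the 314, of which 3.5% were past the threshold. Scaled on all miRNAs of the array, it was -0.028 (limma, adjusted p = 1). For miR-29a and miR-29c the interactions were 0.39 ± 0.18 and 0.26 ± 0.18 (limma, adjusted p = 0.288 and 0.563). Within the 2 scans that held males of both ages the miR-29b difference was 0.71 and 0.94, and within the 3 scans that held females it was between -0.53 and -0.34. Each of these scans held 1 or 2 animals of a sex and age. The share of all expressed miRNAs without overlap between these ages is not given here. The summed biliary markers were 0.928 to 1.80 in males of 52 weeks and 1.836 to 4.64 in those of 104 weeks, with 5 of 5 expressed, and the summed leukocyte markers were 8.60 to 14.7 and 12.1 to 22.7, with 4 of 5 expressed. In females the leukocyte sums were 9.55 to 10.68 and 10.1 to 29.98 at these ages and the biliary sums 0.590 to 1.58 and 0.378 to 2.52. The hepatocyte sums were 972 to 1137 and 685 to 989 in males and 906 to 1388 and 691 to 1234 in females, and the endothelial sums 17.9 to 22.9 and 14.1 to 17.4 in males and 15.6 to 19.8 and 15.5 to 22.6 in females. Red cell sums were 7.41 to 11.3 and 9.75 to 14.8 in males and 6.45 to 8.13 and 6.72 to 16.1 in females, and mesenchymal sums 11.2 to 13.98 and 9.69 to 12.003 in males and 10.73 to 15.4 and 9.22 to 15.3 in females. The biliary and endothelial sums of the males did not overlap between these ages. Their part in the miR-29b difference was not tested.

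At 78 weeks the males lay between, and were the most variable group for miR-29b, at 32.1, 33.1, 42.8, 43.6 and 63.2. The 5 females of that age were close together at 59.5, 60.03, 60.2, 62.5 and 63.1. The sex by age interaction for 78 against 52 weeks was 0.75 ± 0.20 and missed the threshold (limma, adjusted p = 0.0911). No miRNA passed it, 0% of those expressed, although 23 had an unadjusted p under 0.05. It passed without male replicate 10 of 52 weeks (0.84, limma adjusted p = 0.0239) and without male replicates 2 (0.84, 0.0281) or 3 (0.85, 0.0209) of 78 weeks.

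Males were compared with females at each age to describe sex differences. At 2 weeks the values given above did not overlap between the sexes for any member, and 16.9% of the expressed miRNAs had all males below all females at that age. The median of all expressed miRNAs was itself -0.12 between the sexes at 2 weeks. The male minus female difference was -0.96 ± 0.13 for miR-29a, -0.62 ± 0.14 for miR-29b and -0.83 ± 0.12 for miR-29c (limma, adjusted p = 1.26e-09, 0.000221 and 2.62e-08). All 3 were called lower in males, as were 7.64% of the expressed miRNAs. The summed hepatocyte markers were also lower in 2-week males, at 399 to 429 against 560 to 674 in females without overlap, and miR-122 was called lower (-0.63 ± 0.12, limma, adjusted p = 6.60e-06). Of the leukocyte markers miR-150 was called lower. The part of these cell types in the sex difference was not tested. The miR-29b difference was close to the 1.5-fold limit. It was no longer called without female replicate 1 (-0.57), female replicate 6 (-0.58) or male replicate 2 (-0.55), nor with the scan as a block (-0.57), and it was -0.23 with arrays scaled on the miRNAs detected on all arrays (limma, adjusted p = 0.481). Under that scaling miR-29a and miR-29c also fell below the fold limit, at -0.57 and -0.44.

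After 2 weeks miR-29b alone was called at any age. At 5 weeks it measured 9.94, 9.99, 11.3, 12.2 and 15.4 in females and 9.12, 10.1, 10.9 and 13.9 in males, and the sexes overlapped (difference -0.10 ± 0.15). At 6 weeks it measured 11.9, 13.8, 14.4, 14.8 and 15.1 in females and 10.3, 11.8, 12.5, 15.0 and 16.9 in males, again overlapping (-0.09 ± 0.14). At 5 weeks limma called 0% of the expressed miRNAs lower in males, with 9 miRNAs at an unadjusted p under 0.05 and 0 called under each of the 8 other settings compared, and at 6 weeks 0.318%.

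At 8 weeks the females measured 19.8, 19.96, 23.9, 25.3 and 27.0 for miR-29b and the males 11.01, 12.8, 13.4, 15.9 and 16.0. The sexes had separated, by -0.75 ± 0.14 (limma, adjusted p = 0.000306), where 4.46% of the miRNAs were called lower in males. At 15 weeks the females measured 36.9, 38.6, 41.9, 42.6 and 45.5 and the males 17.04, 18.8, 21.3, 21.8 and 22.9. The difference was -1.02 ± 0.14 or 2.02-fold (limma, adjusted p = 1.09e-07), against a background of 6.05%. At 21 weeks the females measured 36.2, 40.6, 44.6, 45.0 and 57.3 and the males 21.3, 23.4, 23.5, 24.1 and 28.2. The difference was -0.88 ± 0.14 (limma, adjusted p = 3.20e-06), against 3.5%. Of all expressed miRNAs, 7.01% had all males below all females at 8 weeks, 6.69% at 15 and 4.14% at 21 weeks.

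The gap was widest at 52 weeks, where the values given above did not overlap and miR-29b was 2.47-fold lower in males, a difference of -1.30 ± 0.14 (limma, adjusted p = 8.13e-12) against a background of 4.14% called lower and 3.82% with all males below all females. At 78 weeks it was -0.55 ± 0.14 or 1.47-fold (limma, adjusted p = 0.00697), just under the fold limit, where 2.55% were called. The males at 78 weeks overlapped the females through replicate 6 alone, at 63.2, and without it the difference was -0.70 and was called. At 104 weeks the difference was 0.08 ± 0.15 (limma, adjusted p = 1) and the sexes overlapped, where 0.318% of the miRNAs were called lower in males. Within the 2 or 3 scans that held both sexes of an age, the difference lay between -0.84 and -0.79 at 8 weeks, between -1.24 and -0.84 at 15, between -1.01 and -0.71 at 21, and between -1.23 and -1.16 at 52 weeks. Each of these scans held 1 to 3 animals of a sex at the age compared.

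The sex difference of miR-29b was thus called from 8 to 52 weeks and at 2 weeks, and not at 5, 6, 78 or 104 weeks. With arrays scaled on all miRNAs of the array it was called at 0 of the 9 ages by limma, with the sign turned at 8 weeks (0.64) and values of -0.59 at 2, -0.28 at 15, -0.55 at 21 and -0.38 at 52 weeks. The percentile of that scaling was an undetected value on 36 of the 88 arrays. Of the cell type markers, some were called higher in males at these ages. The biliary marker miR-200b differed by 1.03 at 8 and 1.54 at 15 weeks, and by 1.21 at 104 weeks, where miR-200a was also called (1.09). The red cell marker miR-451 differed by 0.96 at 8 and 15 and 0.83 at 21 weeks, and the leukocyte marker miR-223 by 0.81 at 52 and 0.61 at 78 weeks. The mesenchymal marker miR-145, not detected on every array, was called lower in males at 78 weeks (-2.70), with undetected arrays set at 0.012. No hepatocyte or endothelial marker was called by limma at an age after 2 weeks. Their part in the sex difference of miR-29b was not tested. The male minus female difference in the rise between 5 and 6 weeks and 15 and 21 weeks, chosen after the values had been seen, was -0.86 ± 0.14 for miR-29b (limma, adjusted p = 1.01e-05), where 5.73% of the miRNAs were past the threshold. Scaled on all miRNAs of the array, it was -0.19 and not past it (limma, adjusted p = 0.956). For miR-29a and miR-29c it was -0.14 ± 0.13 and -0.05 ± 0.12 (limma, adjusted p = 0.660 and 1). From 5 to 21 weeks the group mean of miR-29b increased 3.80-fold in females and 2.19-fold in males. For miR-29a these folds were 2.50 and 2.27, and for miR-29c 1.99 and 2.36.

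For miR-29a the difference nearest to a call after 2 weeks was at 8 weeks, at -0.44 ± 0.13 or 1.36-fold (limma, adjusted p = 0.0200). The females there measured 36.9, 37.8, 41.9, 45.7 and 49.7 and the males 27.4, 29.6, 30.3, 34.0 and 34.6. The sexes did not overlap, as in the 7.01% of expressed miRNAs with all males below all females, yet the fold limit was not reached. From 15 to 78 weeks its differences lay between -0.35 and -0.17, all with males below females and none called. Scaled on all miRNAs of the array, they had the opposite sign at 8 weeks (0.95), 15 weeks (0.57), 21 weeks (0.14), 52 weeks (0.57) and 78 weeks (0.18), again uncalled, and under quantile normalization the difference was 0 at 15 and 0.04 at 21 weeks. For miR-29c the differences from 5 to 104 weeks lay between -0.21 and 0.24, with males above females at 6, 21 and 104 weeks, and none was called. At 15 weeks the males, from 18.3 to 19.5, all lay below the females, from 19.7 to 22.1, as in 6.69% of the expressed miRNAs. At 8 weeks the difference of -0.21 was called in opposite directions by other settings, at 1.18 scaled on all miRNAs of the array (limma, adjusted p = 0.0226) and at -0.78 with normexp (limma, adjusted p = 0.0349).

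**Figure D3:**
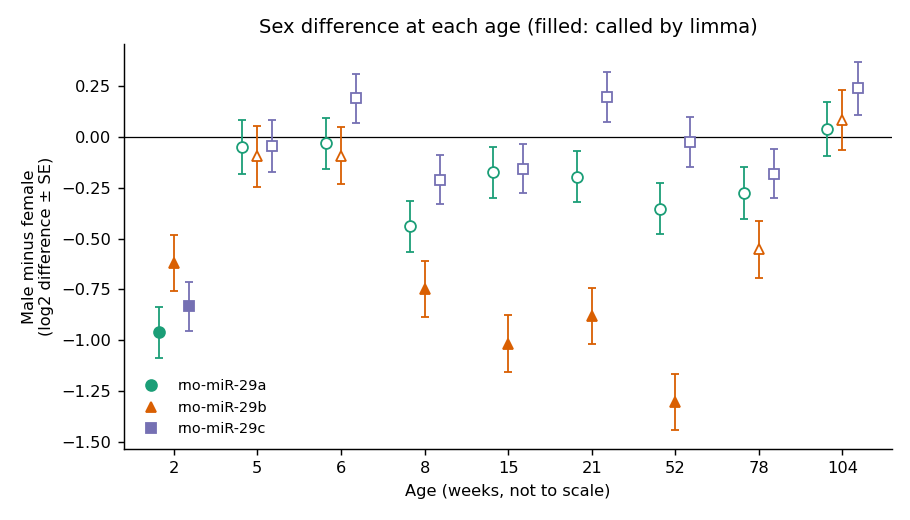
Male minus female log2 difference of miR-29a, miR-29b and miR-29c at each age, with the limma SE as bars. Filled symbols were called (adjusted p under 0.05 and at least 1.5-fold). The 3 members are all low in males at 2 weeks, and from 8 to 52 weeks miR-29b alone is called, down to -1.30 at 52 weeks.

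The change of miR-29b against the other members was measured as the log2 ratio of 2 members on the same array, which does not depend on how the array was scaled. The size of such a ratio reflects the probes, so only its changes are read. There were 18 such tests, 3 pairs in 6 comparisons, with Benjamini-Hochberg adjustment over them. Over 15 to 78 weeks, with sex permuted within age, the ratio of miR-29b to miR-29a was lower in males by -0.69 and that of miR-29b to miR-29c by -0.90 (permutation test, 20 against 20 animals, adjusted p = 4.5e-05 for both, from the smallest raw p that 100000 permutations could give, 1e-05). The ratio of miR-29c to miR-29a was higher in males by 0.21 (adjusted p = 0.000797). The sex difference of miR-29b in these ages was therefore a difference from both other members.

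Both ratios with miR-29b also differed between old and adult animals, although the animals overlapped. miR-29b over miR-29a reached 0.15 in adult females while old females went down to -0.41, and old males, from -1.17 to 0.07, overlapped adult males, from -1.43 to -0.58. miR-29b over miR-29a was higher in old than adult animals by 0.62 in females and 0.59 in males (permutation test, adjusted p = 4.5e-05 and 6e-05). miR-29b over miR-29c was higher by 0.75 and 0.68 (permutation test, adjusted p = 4.5e-05 and 6e-05). The female ratios had already risen within the adult ages. Female means of miR-29b over miR-29a were -0.99, -1.01 and -0.87 at 5, 6 and 8 weeks. They were -0.34 and -0.39 at 15 and 21 weeks, and 0.05, -0.22 and -0.13 at 52, 78 and 104 weeks. Female means of miR-29b over miR-29c went from 0.21 at 5 to 1.15 at 21 weeks, beside 1.24 to 1.53 in the old groups. Male means of miR-29b over miR-29a lay between -1.19 and -1.04 at the adult ages. For miR-29c over miR-29a the changes of -0.13 and -0.09 did not pass (permutation test, adjusted p = 0.0611 for both). In males of 52 weeks the log2 ratio of miR-29b to miR-29c was 0.08, 0.10, 0.32, 0.34 and 0.41 on the 5 arrays. In males of 104 weeks it was 1.15, 1.18, 1.27 and 1.44, and in males of 78 weeks 0.52, 0.69, 0.81, 0.96 and 1.37. The 78-week males reached from above the 52-week animals into the range of the 104-week animals. In females it was 1.28, 1.36, 1.64, 1.68 and 1.68 at 52 weeks and 1.24, 1.26, 1.36, 1.58 and 1.65 at 104 weeks, overlapping throughout.

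The ratios at 2 weeks were compared with those of adults in each sex, and the difference between the sexes in these changes was not tested. In females miR-29b over miR-29c was lower at 2 weeks than in adults by -0.54 (exact permutation test, 5 against 25 animals, adjusted p = 0.00749). The female mean was 0.10 at 2 weeks, beside 0.21 at 5 and 1.15 at 21 weeks, so this difference depended on the adult age. In males miR-29b over miR-29c was 0.24 higher, which did not pass (exact permutation test, 5 against 24, adjusted p = 0.0611), whereas miR-29b over miR-29a was 0.49 higher (exact permutation test, adjusted p = 0.00180). miR-29c over miR-29a was higher at 2 weeks by 0.29 in females and 0.25 in males (exact permutation test, adjusted p = 0.00749 and 0.000909), values that depended on the probe: they were 0.14 and 0.08 with probe 2 of miR-29c and probe 1 of miR-29a and then did not pass. Between males and females of 2 weeks, none of the 3 ratios passed (exact permutation test, 5 against 5, adjusted p from 0.0611 to 0.262).

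**Figure D4:**
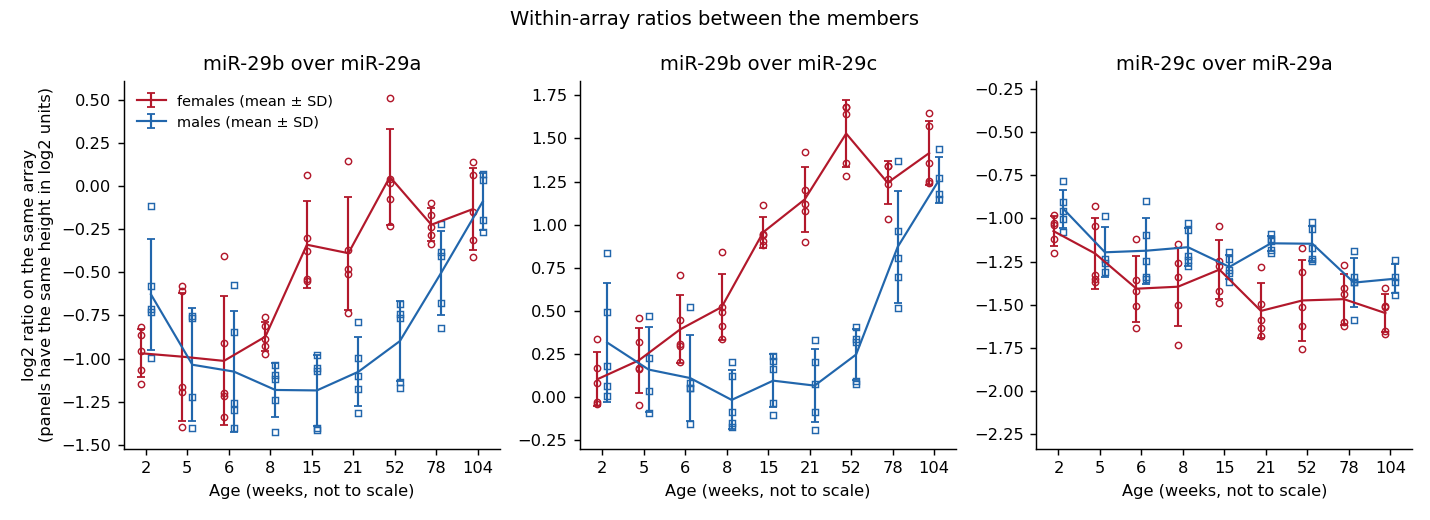
Log2 ratio of 2 members on the same array at the 9 ages, in 3 panels of equal height: miR-29b over miR-29a, miR-29b over miR-29c and miR-29c over miR-29a. Points are animals, lines join means and bars are SD (n = 4 or 5). The group means of miR-29b over miR-29c span 1.54 log2 units and those of miR-29c over miR-29a 0.60, and the male lines of both panels with miR-29b rise between 52 and 104 weeks.

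Among animals of the same sex and age, miR-29a and miR-29c varied together most. Over the 88 arrays, the deviations from the group means correlated with Pearson's r = 0.69 and Spearman's rho = 0.71 for miR-29c with miR-29a (permutation test, adjusted p = 1.5e-05 for both, again from the smallest raw p possible). They correlated with r = 0.51 and rho = 0.49 for miR-29b with miR-29c (permutation test, adjusted p = 1.5e-05 for both). For miR-29b with miR-29a they were r = 0.24 and rho = 0.21 and did not pass (permutation test, adjusted p = 0.0553 and 0.0803). Without the 2 arrays farthest from the median, r was 0.68, 0.45 and 0.26. Within the 4 scans of over 1 array, r was between 0.67 and 0.77 for miR-29c with miR-29a, between 0.27 and 0.74 for miR-29b with miR-29c, and between -0.17 and 0.55 for miR-29b with miR-29a. The values of an array share its scaling, which adds to all 3 correlations. The highest of the 3 values belonged to miR-29a and miR-29c, which lie on different chromosomes and are identical at 21 of 22 bases. How far their probes tell them apart was not tested, nor were the differences between the 3 correlations.

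The array also carried probes for 4 passenger strands, the less stable strands of the same hairpins, named miR-29a*, miR-29b-1*, miR-29b-2* and miR-29c*. The strands miR-29b-1* and miR-29b-2* were not detected on any of the 88 arrays, and miR-29a* was detected on 7, none of 2-week animals. miR-29c* was detected on 83, namely on 3 of 5 arrays of 2-week animals in each sex, on 25 of 25 adult females, on 23 of 24 adult males and on all old animals. Its median was 0.0588 at 2 weeks, 0.220 in adult and 0.320 in old females, and 0.0345, 0.208 and 0.332 in males. It was called lower at 2 weeks by -2.58 ± 0.29 in females and -2.69 ± 0.41 in males (limma, adjusted p = 3.10e-10 and 2.27e-07), sizes that depend on the value of 0.012 set for undetected arrays. In old animals its differences of 0.47 ± 0.20 and 0.72 ± 0.28 were not called (limma, adjusted p = 0.139 and 0.105). Between the sexes its adjusted p was at least 0.825 at each age (limma).

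Over the 78 arrays from 5 weeks on, the miRNAs most like the mean of the 3 members were sought among the 100 others detected on all arrays. The most similar were miR-195 (Pearson's r = 0.81), miR-497 (0.77), miR-26b (0.74), miR-101a (0.69) and miR-10a-5p (0.63), and the least were miR-15b (-0.72), miR-200b (-0.72) and miR-200a (-0.57), around a median of 0.18. These are descriptions over arrays that share age groups and scaling. The members themselves correlated at 0.94 (miR-29c with miR-29a), 0.91 (miR-29b with miR-29a) and 0.86 (miR-29b with miR-29c). The 5 similar miRNAs did not have the members' call in old rats. miR-195 and miR-497, which are processed from a common cluster, differed by 0.42 ± 0.11 and 0.38 ± 0.11 in old females (limma, adjusted p = 0.0107 and 0.0178) and by 0.31 ± 0.11 and 0.22 ± 0.09 in old males (0.0536 and 0.105), under 1.5-fold. Both were called lower at 2 weeks, by -1.57 and -1.44 in females and -2.32 and -2.13 in males, and called lower in 2-week males than females, by -0.83 and -0.74. None of the 5 was called for sex at any age from 5 weeks on. miR-200b, a marker of biliary and other epithelia, was called lower in old males by -0.79 ± 0.22 (limma, adjusted p = 0.0112).

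Lists of miRNAs with a literature on liver fibrosis and on senescence were set beside the family. Of 13 miRNAs linked with fibrosis and stellate cells, 12 were expressed. Limma called 0 of the 12 higher in old rats of either sex, with 3 at an unadjusted p under 0.05 in females and 4 in males. Over all expressed miRNAs 1.59% were called higher in old females and 3.82% in old males, so 0 of 12 was near the background. In old males miR-221, which promotes proliferation, was called lower by -1.22 ± 0.32 (limma, adjusted p = 0.00790), where 1.27% of all expressed miRNAs were called lower. The median of the 12 was 0.06 in old females and -0.03 in old males, beside 0 for all expressed miRNAs. At 2 weeks 3 were called lower in females and 5 in males, with miR-21 at -1.27 and -2.53, miR-101a at -1.12 and -1.03, and miR-30a at -0.65 and -1.43. Over all expressed miRNAs 22.9% and 29.9% were called lower, so that 3 of 12 in females was near the background. Across the alternatives the count called lower was 1 to 5 in females and 2 to 10 in males, and that called higher was 0 to 4 and 0 to 5. Between the sexes miR-152 was called lower in males at 15 weeks (-1.01), 21 weeks (-1.03), 52 weeks (-1.54) and 78 weeks (-0.84). miR-21, the most studied of the list in fibrosis, was called higher in males at 15, 21 and 52 weeks, by 0.97, 0.63 and 0.62. miR-221 was called higher in males at 6, 15 and 21 weeks, by 3.11, 1.96 and 2.99. It was not detected on every array, and undetected arrays were set at 0.012, so its sizes here and in old males can depend on that value.

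Of 14 miRNAs linked with senescence and ageing, all 14 were expressed and miR-34a, a transcriptional target of p53, was called higher in old rats, by 0.94 ± 0.11 in females and 1.64 ± 0.10 in males (limma, adjusted p = 7.71e-08 and 8.52e-17). No other member of the list was called in old rats, where 1.59% of all expressed miRNAs were called higher in females and 3.82% in males. The list's median was 0.04 in old females and -0.07 in old males. At 2 weeks 4 of the 14 were called lower in females and 6 in males, with miR-22 at -1.38 and -2.15 and miR-34a at -1.58 and -1.90, beside the same shares of 22.9% and 29.9% over all expressed miRNAs. Across the alternatives this count was 1 to 8 in females and 2 to 11 in males, and that called higher was 0 to 3 and 0 to 5. Against adults, old females had miR-1 and miR-133b of the 5 skeletal muscle markers called lower and no other marker called. The summed muscle markers were 0 to 0.275 in old females and 0 to 21.2 in adult females. In old males miR-200b was the only marker called. Hepatocyte marker sums were 691 to 1388 in old females beside 653 to 1289 in adults, and 685 to 1137 beside 634 to 1272 in males. Those of stellate and other mesenchymal cells were 9.22 to 18.1 beside 11.4 to 22.6 and 9.09 to 16.5 beside 10.2 to 21.6. The ranges of old and adult rats overlapped for both sums in each sex. The leukocyte sums were higher in old rats by their medians, at 9.55 to 29.98 (median 10.6) in old females beside 5.63 to 13.5 (median 8.998) in adults and 8.60 to 22.7 (median 12.8) in old males beside 6.85 to 12.9 (median 9.01) in adults, with 0 of the 4 expressed markers called. Red cell sums were 6.45 to 17.5 (median 11.1) in old females beside 4.17 to 19.1 (median 6.81) in adults, and 7.41 to 28.01 (median 11.4) beside 7.14 to 21.1 (median 11.1) in males. Biliary sums were 0.378 to 3.12 (median 1.43) beside 0.534 to 4.22 (median 1.91) in females and 0.535 to 4.64 (median 1.85) beside 1.06 to 5.26 (median 2.83) in males. Endothelial sums overlapped too, between 14.1 and 24.002 over all old and adult rats. The part of these cell types in the members' differences was not tested.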

How the data were processed

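Liver RNA of 88 rats was measured on single-colour rat miRNA arrays, and the authors deposited the scanner output of each array, made with Agilent Feature Extraction. The deposited intensity used here was the total gene signal, a background-subtracted sum over the probes of a miRNA, in which 0.1 marks a miRNA not detected. The authors also deposited a table of the ratio of these signals to the 75th percentile of the 314 expressed miRNAs of each array, with undetected values set to 0.012, and it served as an alternative. The same ratio was computed here from the scanner files, with undetected signals at 1.84 when the percentile was taken, and log2 of it was tested. Arrays of a later file design were joined by probe name (17 arrays). The 75th percentile of raw signal was between 28.1 and 289 on an array (median 62.1). No column was left without a sample (0), and no pair of arrays held identical values (0).

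Differences were tested with limma 3.58.1 in R 4.3.3, with fold changes on the log2 scale and Benjamini-Hochberg adjustment over the 314 expressed miRNAs. Age was tested within each sex, and sex at each age in 1 model of all 88 arrays. Ratios and correlations were tested by permutation in Python 3.11.15 (numpy 2.4.6, scipy 1.17.1, pandas 2.3.3, with figures by matplotlib 3.10.9). The procedures were tested on simulated data. Each array is 1 animal, so p-values measure the spread between animals. Where ages were pooled into classes, that spread includes the change with age within a class. Folds are relative to the scaling of the array, and the number of animals limits precision.

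The miRNAs named were the 3 members, their passenger strands, the 5 miRNAs most and the 3 least correlated with the members, and of each list at most the 4 largest differences called. The members, lists and tests were chosen with earlier results of these data known. Alternatives were other percentiles, quantile normalization, the deposited table, normexp background correction with an offset of 50 (on the median spot signal, since the files used give no mean), mean processed signals, single probes, a filter to miRNAs detected on all arrays, scan, slide or replicate number as a block, the methods' t-test, and leaving out each array. The 4 sex by age interactions over single ages were added after the data had been seen.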

Additional observations from a re-analysis of the deposited data

Results flagged for a closer look

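Of 54 groups of 4 or 5 animals tested for a single array far from the rest, 8 had one, where chance gives about 1 in 20 groups. For miR-29a these were female replicate 4 of 2 weeks at 6.11 (others 7.79 to 8.27), male replicate 1 of 5 weeks at 18.4 (others 23.5 to 24.1), male replicate 1 of 21 weeks at 58.6 (others 48.1 to 50.2) and male replicate 6 of 78 weeks at 73.5 (others 52.9 to 56.8). For miR-29c they were female replicate 4 of 2 weeks at 2.66 (others 3.67 to 4.03), male replicate 5 of 6 weeks at 16.3 (others 10.5 to 12.1), male replicate 1 of 21 weeks at 26.8 (others 21.0 to 22.6) and male replicate 10 of 52 weeks at 31.5 (others 24.0 to 26.1). Female replicate 4 of 2 weeks and male replicate 1 of 21 weeks stood apart for both members. No array stood apart by this measure for miR-29b in its groups.

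The sexes differed in the change with age, by a limma interaction, in 4 cases. The male minus female change from adult to 2 weeks was -0.79 for miR-29a and -0.83 for miR-29c. For miR-29b the change from 5 and 6 to 15 and 21 weeks differed by -0.86, and that from 52 to 104 weeks by 1.39. Scaled on all miRNAs of the array, the miR-29b values were -0.19 and -0.028 and the miR-29a value was -1.19, none past the threshold, and with normexp those of miR-29a and miR-29c were not past it (-0.48 and -0.45). These contrasts were chosen after the values had been seen.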

How the results depend on the processing

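The deposited normalized table kept the call of each of the 94 results it was applied to, and the methods' t-test that of each of 42. Scaling on all miRNAs of the array, expressed or not, where the percentile was an undetected value on 36 of 88 arrays, changed 35 of 94. It turned the male minus female difference at 8 weeks to 0.64 for miR-29b (uncalled), 1.18 for miR-29c (called) and 0.95 for miR-29a (uncalled), and the miR-29b interaction for 104 against 52 weeks to -0.028. The old minus adult difference stayed positive but lost its call for miR-29a and miR-29c under quantile normalization (0.40 and 0.54 in females, 0.42 and 0.51 in males), for miR-29c in females with the percentile over miRNAs detected on all arrays (0.54), and in males on all miRNAs (0.74 and 0.65). Of the 18 single old ages, 5 were called on all miRNAs and 10 under quantile normalization, against 17. The ages called lower in males were 0 for miR-29a and for miR-29c under both other percentiles, 0 for miR-29b on all miRNAs, and 2 for miR-29a with normexp or probe 2 alone. Calls over the 36 pairs of ages on all miRNAs were 10 for miR-29a and 8 for miR-29c in females, and 12, 14 and 12 for miR-29a, miR-29b and miR-29c in males, and under quantile normalization 11 and 12 for miR-29a in females and males. Over all miRNAs the counts called at 1.5-fold also moved, for old minus adult females from 14 to 5 and for 2 weeks minus adult females from 125 to 41 with normexp, for 15-week sex differences from 29 to 4 with normexp, and for 8-week sex differences from 16 to 102 on all miRNAs. Counts over the fibrosis and senescence lists moved in 26 cases and stayed within 1.5 times in 118. Among the ratios, miR-29c over miR-29a in old against adult rats passed at -0.14 (mean processed) and -0.17 (normexp) in females and, in males, at -0.10, -0.14, -0.13 with a replicate block, -0.14 (probes 1 and 2) and -0.13 (probes 2 and 2). Over the 8 alternatives it ranged from -0.17 to -0.068 in females and from -0.14 to 0.010 in males. At 2 weeks against adults it failed at 0.14 in females and 0.083 in males (probes 2 and 1) and 0.098 in males (probes 1 and 1), and between the sexes it passed at 0.22 with normexp. miR-29b over miR-29a in 2-week males failed at 0.30 (probes 2 and 1), and between the sexes at 2 weeks passed at 0.33 (normexp) and 0.42 (probes 1 and 2). miR-29b over miR-29c in 2-week males passed at 0.28 (probes 1 and 1) and 0.29 (probes 1 and 2). The causes were not tested. Leaving out each array in turn moved miR-29c over miR-29a between -0.15 and -0.11 in old females, passing without 7 single arrays (21 weeks replicates 2 and 4, 52 weeks replicates 5 and 6, 6 weeks replicate 1, 78 weeks replicate 3, 8 weeks replicate 6), and between -0.11 and -0.067 in old males, passing without 52 weeks replicate 5 or 10. At 2 weeks between the sexes it lay between 0.087 and 0.16, passing without male replicate 1, and miR-29b over miR-29a between 0.21 and 0.43, passing without male replicate 2. For miR-29b over miR-29c in 2-week males it lay between 0.11 and 0.31, passing without replicate 2 or 5 of 2 weeks, 6 of 21 weeks, 4 of 5 weeks or 1 of 6 weeks. The replicate block also took the miR-29b interaction for 78 against 52 weeks past the threshold (0.90) and changed 3 of 112 results in all; same-numbered animals shared only a number (17 of 33 pairs correlated over 0.1, lowest -0.69).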
